A study of Mus musculus with 6 samples.

Results

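Hepatokines are proteins that liver cells secrete into the blood and that act on other organs or on the blood's own lipases and growth factors. The hepatokine genes followed here were Fgf21, Gdf15, Inhbe, Angptl4, Angptl8, Igfbp2, Ahsg, Fetub and Lect2. They were chosen by symbol, with earlier results of these data known. All 9 were found among the 15092 genes of the table and among the 13816 genes with enough counts to test. RNA came from the liver of C57BL/6J mice, in 3 libraries labelled CRY1 KO, a knockout of the cryptochrome gene Cry1, and 3 labelled WT. Every title carries the prefix NC, which is not explained, and age, sex, feeding state, hour of sampling and the form of the Cry1 allele are not given. Nothing states that the libraries of a group came from separate mice, and a p-value here measures only the spread among the libraries, which may be partly technical.

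FGF21 is a hormone of fasting and nutrient stress that signals through FGF receptors with the co-receptor β-Klotho. GDF15 is a stress-induced hormone that lowers appetite through a receptor in the hindbrain, and INHBE is the activin βE subunit, made mostly in the liver. ANGPTL4 and ANGPTL8 restrain lipoprotein lipase, the enzyme that releases fatty acids from circulating triglycerides, ANGPTL4 in fasting and ANGPTL8 after feeding. IGFBP2 binds insulin-like growth factors. AHSG and FETUB are fetuin A and fetuin B, abundant plasma proteins of the cystatin superfamily, and LECT2 is a liver-derived chemotactic factor. Cryptochromes repress the CLOCK and BMAL1 activators, which bind E-boxes in DNA.

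Start regions were found in RefSeq's table of the GRCm38.p6 build for 8 of the 9 genes, Angptl4 being the one not matched, with 11 starts in all. The table's build is not the GRCm39 build named for the libraries, so its positions hold for GRCm38.p6 alone. Each 300-base region was searched on both strands for the E-box CACGTG, the ATF4 element TGATGNAAT, the D-box TTANGTAA and the DR1 repeat that PPAR factors bind. An E-box match lay before a start of 3 of the 8 genes (Fgf21, Igfbp2 and Gdf15), in 3 of the 11 start regions of the 8, and 7.15% of all 32851 start regions held one. An ATF4 element match lay before the starts of Fgf21 and Angptl8, in 2 of the 11 regions, and 0.965% of all regions held one. The D-box (2.32% of all regions) and DR1 (0.0396%) matched in 0 of the 11. These are matches of letters and not measured binding. The 160 bases before the start are shown for the genes with a match, since these are the elements through which clock, stress and nutrient factors are known to act, and for Lect2, the gene with the smallest p among the 9. Capitals mark the matches.

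Fgf21, chr7:45615491-45615650, minus strand: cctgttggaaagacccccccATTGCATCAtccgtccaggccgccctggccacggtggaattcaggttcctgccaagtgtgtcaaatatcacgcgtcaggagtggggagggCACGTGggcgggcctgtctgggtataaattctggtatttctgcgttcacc
Angptl8, chr9:21835350-21835509, plus strand: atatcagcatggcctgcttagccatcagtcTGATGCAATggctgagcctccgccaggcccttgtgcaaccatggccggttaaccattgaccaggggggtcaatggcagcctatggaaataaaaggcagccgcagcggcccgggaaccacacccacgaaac
Igfbp2, the first of its starts, chr1:72824320-72824479, plus strand: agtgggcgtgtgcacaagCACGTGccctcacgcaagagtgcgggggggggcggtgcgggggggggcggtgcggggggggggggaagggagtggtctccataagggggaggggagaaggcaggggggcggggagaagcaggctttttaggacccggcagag
Gdf15, the second of its starts, chr8:70632096-70632255, minus strand: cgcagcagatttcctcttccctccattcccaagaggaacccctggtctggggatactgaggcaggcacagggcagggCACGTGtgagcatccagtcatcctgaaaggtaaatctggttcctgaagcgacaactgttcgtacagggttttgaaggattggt
Lect2, no match, chr13:56548539-56548698, minus strand: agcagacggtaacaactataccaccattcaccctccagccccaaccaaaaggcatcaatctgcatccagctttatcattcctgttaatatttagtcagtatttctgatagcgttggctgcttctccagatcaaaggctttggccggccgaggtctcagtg

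In Fgf21 the ATF4 element match began 140 bases and the E-box match 50 bases before the start. The ATF4 element match of Angptl8 began 130 bases before its start, and the E-box matches of Igfbp2 and Gdf15 began 142 and 83 bases before theirs.

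Estimated counts per library summed to between 79708703 and 91316332. Cry1 itself was at 6.95, 6.41 and 5.22 CPM (counts relative to the scaled library size) in the libraries labelled CRY1 KO, against 4.8, 6.89 and 7.24 CPM in WT. Its log2 difference was -0.03 (SE 0.19, edgeR adjusted p = 0.954), so the level of Cry1 over the whole gene does not check the knockout labels. Libraries were scaled by TMM, edgeR's trimmed mean of log ratios, and each log2 difference is that of libraries labelled CRY1 KO minus WT. The cell type is labelled as hepatocyte. Albumin (Alb) was at 53549 to 62772 CPM in libraries labelled CRY1 KO and at 45886 to 54652 CPM in WT. Of 10 hepatocyte markers 5 had positive and 5 negative log2 differences (median 0.09), where 6537 of the 13816 tested genes were positive. Of 10 stellate cell and fibroblast markers 9 had negative log2 differences (median -0.20), and 0 passed by edgeR or DESeq2. Of 10 endothelial markers 8 had positive log2 differences (median 0.23), 0 passed by edgeR or DESeq2, and 4 had an unadjusted p under 0.05, against 20.7% of all tested genes. The smallest p were those of Oit3 (log2 0.33) and Stab1 (0.33). In bulk RNA, fewer cells of a type and less RNA per cell cannot be told apart. The 10 markers of Kupffer cells, the resident liver macrophages, summed to 229, 229 and 230.03 CPM in libraries labelled CRY1 KO and to 638, 400.2 and 248.8 CPM in WT. All 10 had negative log2 differences; 0 passed edgeR, 8 had an unadjusted p under 0.05 (20.7% of all tested genes did) and DESeq2 passed 6 (9.06% of all). Of the marker genes of all the cell types listed, the hepatocyte transcription factor gene Hnf4a rose (log2 0.73) and the antibody joining chain gene Jchain of plasma cells fell (-2.45), both calls being lost when any 1 of the libraries labelled CRY1 KO was left out, and that of Hnf4a also without WT 2.

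Among the 9 hepatokine genes, the fasting-linked pair Angptl4 and Fgf21 had the largest differences, standing 3.01-fold and 2.94-fold higher in libraries labelled CRY1 KO than in WT on the fitted scale. Lect2 stood 1.43-fold and Ahsg 1.19-fold lower, and Gdf15 stood 0.49 higher on the log2 scale. Fetub, Angptl8, Igfbp2 and Inhbe lay within 1.13-fold of WT. None of these differences passed the main test. By edgeR's quasi-likelihood test, 0 of the 9 hepatokine genes passed an adjusted p of 0.05, where 1.70% of all tested genes did, with CRY1 KO above WT in 1.06% and below it in 0.644%. An unadjusted p under 0.05 was found for 2 of the 9, against 20.7% of all tested genes. DESeq2 passed 2 of the 9, Fgf21 and Lect2, and 9.06% of all genes, while limma passed 0 of the 9 and 2.19% of all genes. In scaled CPM the groups did not overlap for 4 of the 9, against 27.3% of all tested genes. These were Fgf21 and Angptl4 with the libraries labelled CRY1 KO above WT (14.6% of all genes), and Ahsg and Lect2 with those libraries below WT (12.7% of all genes). The median log2 difference of the 9 was 0.14, and that of all tested genes -0.02. The median of the 9 was 0.43 without WT 3, 0.052 without WT 1 and 0.059 without the third library labelled CRY1 KO.

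**Figure D1:**
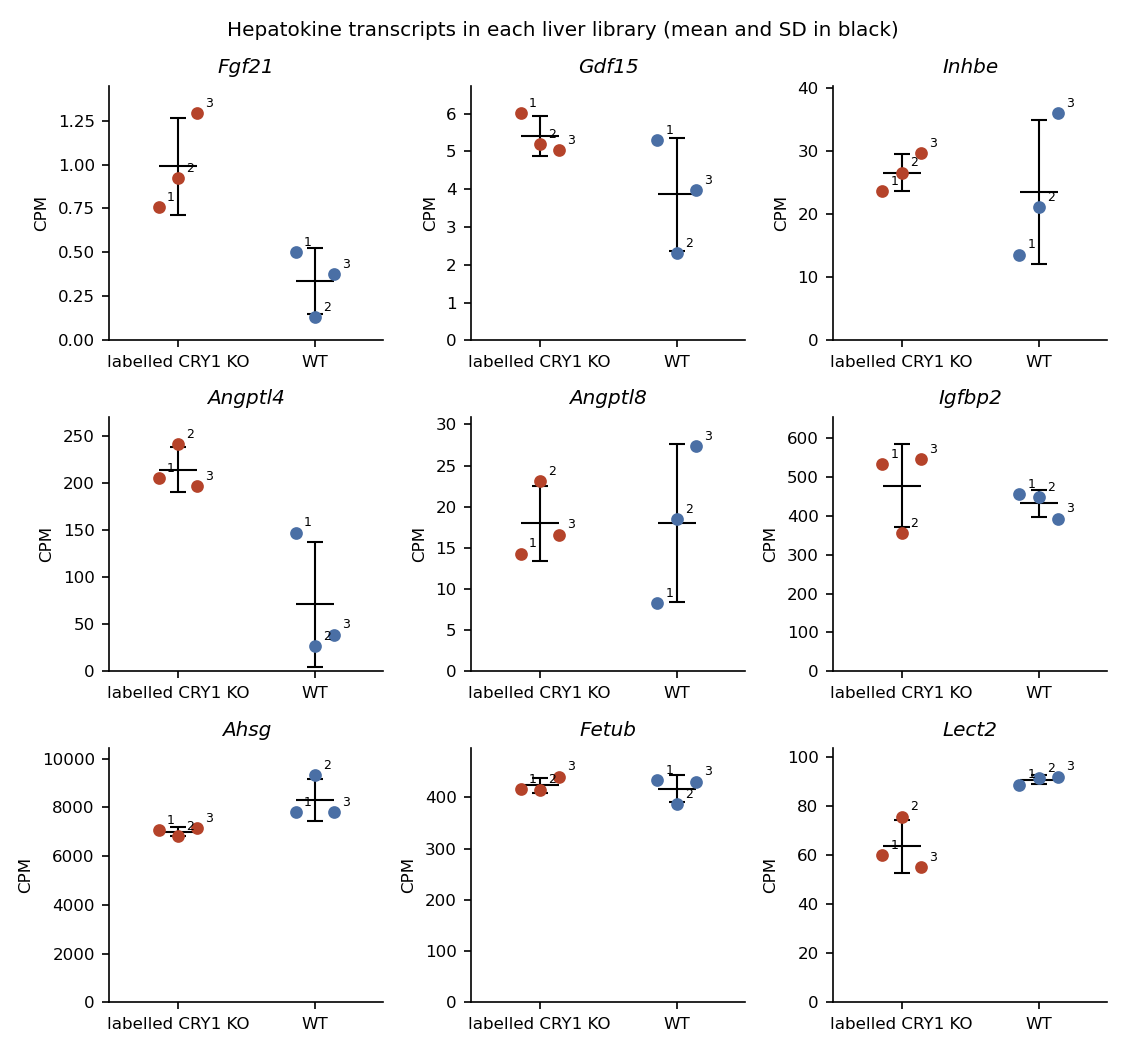
CPM of each hepatokine gene in the 3 libraries labelled CRY1 KO (red) and the 3 WT libraries (blue), numbered by replicate, with the mean and SD of each group in black and each vertical axis starting at 0. Fgf21 and Angptl4 lie higher, and Lect2 and Ahsg lower, in every library labelled CRY1 KO, while WT 1 lies far above WT 2 and WT 3 for Angptl4.

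Levels between genes were compared per kilobase of merged exons in GENCODE M21, which need not be the annotation the authors counted on. Ahsg was the most abundant, at 3192 ± 80.7 CPM per kilobase in the libraries labelled CRY1 KO and 3784 ± 398 in WT (SD, n = 3 each). Igfbp2 followed at 259 ± 57.4 CPM per kilobase in the libraries labelled CRY1 KO and 234 ± 18.6 in WT. Fetub stood at 216 ± 7.42 CPM per kilobase in the libraries labelled CRY1 KO, within the SD of Igfbp2 there, and at 212 ± 13.4 in WT. Lect2 stood at 69.1 ± 11.8 CPM per kilobase in the libraries labelled CRY1 KO and 98.7 ± 1.95 in WT. Angptl4 stood at 60.5 ± 6.67 CPM per kilobase in the libraries labelled CRY1 KO, within the SD of Lect2 there. In WT it stood at 20.1 ± 18.7, beside 20.84 ± 11.05 for Angptl8, so their order in WT was not resolved. Inhbe, Gdf15 and Fgf21 were the lowest, at 5.01 ± 0.57, 2.92 ± 0.28 and 1.04 ± 0.29 CPM per kilobase in the libraries labelled CRY1 KO and 4.44 ± 2.15, 2.08 ± 0.81 and 0.35 ± 0.20 in WT.

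Fgf21, the fasting hormone, had 61, 75 and 110 estimated counts in the libraries labelled CRY1 KO, against 43, 11 and 36 in WT. As levels these were 0.756, 0.922 and 1.29 CPM in libraries labelled CRY1 KO and 0.50, 0.13 and 0.38 CPM in WT. The groups did not overlap, and WT 2 was the lowest library. The log2 difference was 1.56 (SE 0.50, edgeR adjusted p = 0.135), with a 95% interval from limma of 0.52 to 2.75. DESeq2 gave a log2 difference of 1.56 with an adjusted p of 0.0395. Fgf21 is the least abundant of the 9, and the table's units need not be single fragments.

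Gdf15, the other stress hormone, stood at 6.01, 5.20 and 5.02 CPM in libraries labelled CRY1 KO, against 5.29, 2.31 and 3.98 CPM in WT. WT 1 lay within the range of the libraries labelled CRY1 KO and WT 2 was the lowest. Gdf15 had a log2 difference equal to 0.49 (SE 0.28, edgeR adjusted p = 0.353; limma 95% interval -0.08 to 1.20). It was 0.78 without WT 1 and 0.22 without WT 2.

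Inhbe stood at 23.6, 26.6 and 29.7 CPM in libraries labelled CRY1 KO, against 13.6, 21.1 and 36.05 CPM in WT. The WT libraries spanned 2.65-fold and enclosed all 3 of the libraries labelled CRY1 KO. For Inhbe the log2 difference came to 0.17 (SE 0.35, edgeR adjusted p = 0.814; limma 95% interval -0.59 to 1.15). It was -0.10 without WT 1, 0.10 without WT 2 or without the third library labelled CRY1 KO, and 0.62 without WT 3.

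Angptl4, the lipase inhibitor of fasting, stood at 205.03, 241 and 196 CPM in libraries labelled CRY1 KO, against 147, 26.7 and 39.2 CPM in WT. The groups did not overlap, but WT 1 lay close to the libraries labelled CRY1 KO, and the WT libraries spanned 5.52-fold where those labelled CRY1 KO spanned 1.23-fold. The log2 difference was 1.59 (SE 0.71, edgeR adjusted p = 0.293). Limma gave 1.99 (95% interval 0.19 to 3.79, limma adjusted p = 0.209). Without WT 1 the edgeR log2 difference was 2.70 (edgeR adjusted p = 0.000976). This was the only one of the edgeR fits run in which a hepatokine gene passed, and 4.04% of all genes passed in that fit. WT 1 also held the most Kupffer and red cell RNA: red cell markers summed to between 581 and 735 CPM in libraries labelled CRY1 KO, against 2977, 1024 and 654 CPM in WT 1, 2 and 3. The part of these cells in the Angptl4 values was not tested. Fat cells also express Angptl4. The 3 of 6 fat cell markers in the table summed to 8.25, 9.10 and 7.96 CPM in libraries labelled CRY1 KO, against 16.7, 8.63 and 7.24 CPM in WT, so WT 1 was the highest here too. Nearly all of this was the fatty acid binding protein gene Fabp4, at 8.11, 8.95 and 7.96 CPM in libraries labelled CRY1 KO and 16.6, 8.63 and 6.89 CPM in WT. The defining marker Adipoq was listed at 0 in the 3 libraries labelled CRY1 KO and in WT 2, and at 0.0581 and 0.0626 CPM in WT 1 and WT 3. The part of fat cells in the Angptl4 values was not tested.

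Angptl8, its counterpart of the fed state, stood at 14.3, 23.1 and 16.6 CPM in libraries labelled CRY1 KO, against 8.26, 18.5 and 27.4 CPM in WT. WT 1, the highest WT library for Angptl4, was the lowest for Angptl8. Between groups Angptl8 had a log2 difference equal to -0.002 (SE 0.45, edgeR adjusted p = 0.998), and the limma 95% interval of -1.07 to 1.33 leaves room for a 2-fold difference either way.

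**Figure D2:**
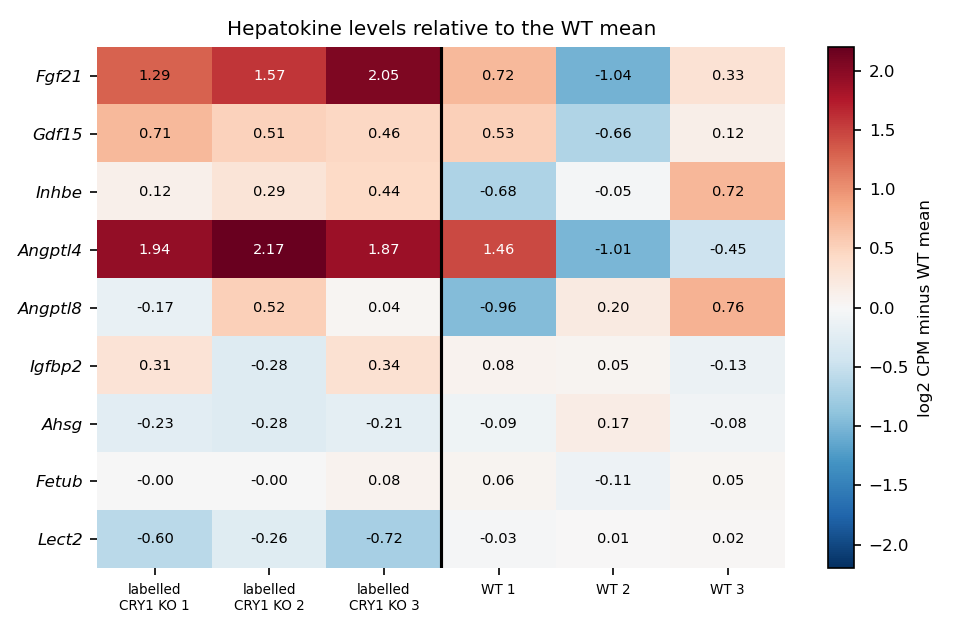
Log2 CPM of each hepatokine gene (rows) in each library (columns) minus the mean of the WT libraries, with libraries labelled CRY1 KO left of the black line and WT right of it. Angptl4 lies at 1.94, 2.17 and 1.87 in the libraries labelled CRY1 KO and at 1.46 in WT 1, while WT 2 and WT 3 lie at -1.01 and -0.45.

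Igfbp2 stood at 533, 355 and 545 CPM in libraries labelled CRY1 KO, against 456, 447 and 393 CPM in WT. The groups overlapped, with the second library labelled CRY1 KO the lowest of all 6. Igfbp2 had a log2 difference equal to 0.14 (SE 0.16, edgeR adjusted p = 0.648; limma 95% interval -0.26 to 0.50). Without the second library labelled CRY1 KO it was 0.32, and without the first, the third or WT 3 it was 0.062, 0.046 and 0.082.

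Ahsg stood at 7077, 6811 and 7148 CPM in libraries labelled CRY1 KO, against 7795, 9323 and 7820 CPM in WT. The groups did not overlap, and WT 2 stood apart on the high side. This gave a log2 difference equal to -0.25 (SE 0.11, edgeR adjusted p = 0.264; limma 95% interval -0.50 to 0.02). Without WT 2 it was -0.16. Ahsg alone took between 0.633% and 0.764% of the counts in the libraries labelled CRY1 KO and between 0.734% and 0.934% in WT. In these unscaled shares the groups overlapped, so their separation in CPM depended on the scaling.

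Fetub, the next protein-coding gene after Ahsg on chromosome 16, had the smallest span over all 6 libraries. It stood at 415, 415 and 440.3 CPM in libraries labelled CRY1 KO, against 433, 386 and 431 CPM in WT. Its log2 difference was 0.02 (SE 0.09, edgeR adjusted p = 0.908), and the limma 95% interval ran from -0.18 to 0.23.

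Lect2 had the smallest p of the 9, the 476th of 13816. Its level was 59.99, 75.7 and 54.9 CPM in libraries labelled CRY1 KO, against 88.6, 91.5 and 91.96 CPM in WT. The WT libraries lay within 1.04-fold of each other and above all of those labelled CRY1 KO. The log2 difference was -0.51 (SE 0.12, edgeR adjusted p = 0.0710; limma 95% interval -0.80 to -0.25). DESeq2 gave -0.51 with an adjusted p of 0.00707.

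**Figure D3:**
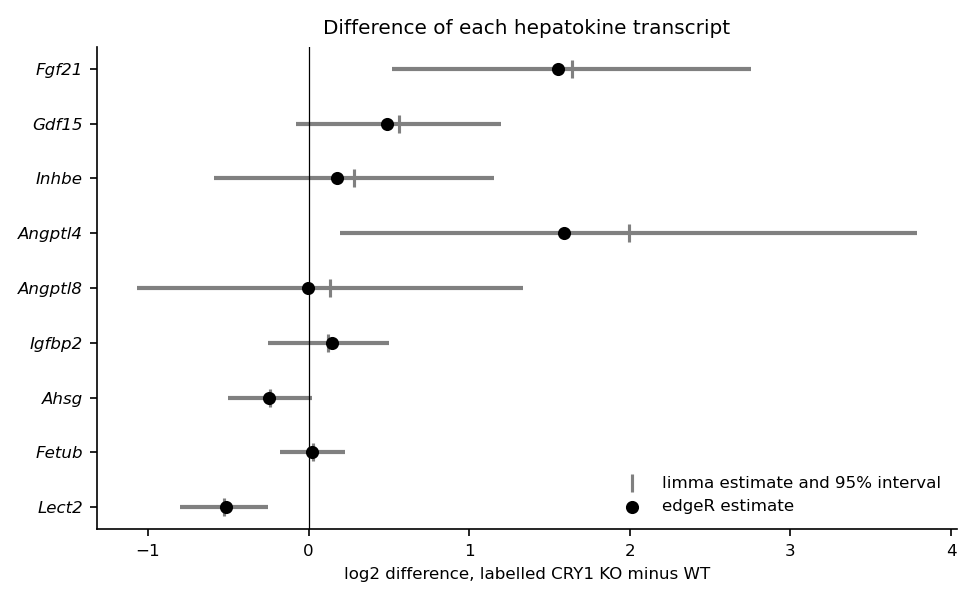
Log2 difference (horizontal axis, libraries labelled CRY1 KO minus WT) of each hepatokine gene, with the edgeR estimate as a black dot and limma's estimate and 95% interval in grey. The intervals belong to limma's estimate and are not adjusted over genes. The intervals of Fgf21, Angptl4 and Lect2 lie on one side of 0, but their limma adjusted p were 0.112, 0.209 and 0.0593. Those of Angptl4 and Angptl8 are the widest.

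Ratios of paired transcripts within a library do not depend on how libraries are scaled. Of the 4 ratios computed, that of Fetub to Ahsg was -4.09, -4.04 and -4.02 on the log2 scale in the libraries labelled CRY1 KO, against -4.17, -4.59 and -4.18 in WT. The groups did not overlap, the difference was 0.27 (0.13 without WT 2), and the exact two-sided permutation p was 0.1 (0.4 adjusted over the 4 ratios), where 0.1 is the smallest that 3 against 3 libraries allow. The log2 ratio of Angptl8 to Angptl4 was -3.84, -3.38 and -3.56 in the libraries labelled CRY1 KO, against -4.16, -0.53 and -0.52 in WT (difference -1.86, exact permutation p = 0.4), and the difference was -3.07 without WT 1. WT 1 lay below the libraries labelled CRY1 KO, and WT 2 and WT 3 far above them. That of Inhbe to Inhbc, the other activin β subunit gene typical of liver, was -0.81, -0.85 and -0.54 in the libraries labelled CRY1 KO, against -1.92, -1.41 and -0.77 in WT (difference 0.63, exact permutation p = 0.3), and the difference was 0.35 without WT 1. That of Igfbp2 to Igfbp1, an insulin-repressed binding protein gene, was 2.51, 1.79 and 1.99 in the libraries labelled CRY1 KO, against 0.92, 3.39 and 3.30 in WT (difference -0.44, exact permutation p = 0.7), and the difference was -1.25 without WT 1, -0.01 without WT 2 and -0.06 without WT 3. Igfbp1 itself stood at 93.5, 103 and 137 CPM in libraries labelled CRY1 KO, against 241, 42.7 and 39.8 CPM in WT.

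**Figure D4:**
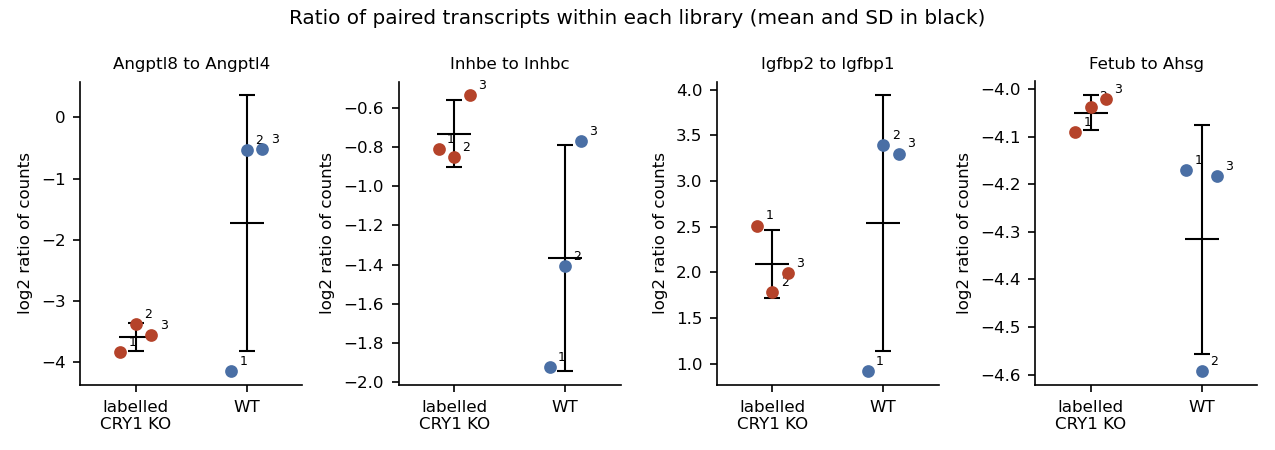
Log2 ratio of the counts of 2 transcripts within each library (vertical axes, each with its own range), numbered by replicate, for libraries labelled CRY1 KO (red) and WT (blue), with mean and SD in black. WT 1 stands apart from WT 2 and WT 3 in the ratios of Angptl8 to Angptl4 and of Igfbp2 to Igfbp1, while WT 2 stands apart in that of Fetub to Ahsg.

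Likeness of pattern was measured as the root mean square difference of log2 CPM over the 6 libraries, each gene centred on its own mean, for the 5 hepatokine genes that spanned over 1 log2 unit. With 6 libraries, 2 groups and all tested genes to choose from, close matches are a description only. Closest to Fgf21 was Maff, a small MAF transcription factor gene (0.14 log2 units, against the 3.09 that Fgf21 spanned), and then Plin4 (0.20), a lipid droplet coat protein gene, and Myom1 (0.23). Closest to Angptl4, which spanned 3.17, were Col6a5 (0.238), the glucocorticoid-induced gene Tsc22d3 (0.243) and Gm8251 (0.32). Closest to Angptl8 were the tissue factor gene F3 (0.17), Ager (0.18) and Zfp11 (0.19). Gdf15 was closest to Tas1r3 (0.098), Camk1d (0.13) and Mllt11 (0.14), and Inhbe to Me3 (0.098), Sipa1l3 (0.11) and Lrig3 (0.12). Among all 9 themselves, those spanning less than 1 log2 unit included, Fetub and Ahsg (0.19) were the closest pair. They had the smallest spans of the 9, 0.19 and 0.45, and this measure is small between any genes that vary little. Angptl4, which had the widest span, and Angptl8 (1.53) were the farthest apart.

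Receptors and partners of the hepatokines were read from lists of related genes, whose counts stand against 1.70% of all tested genes for edgeR, 20.7% for an unadjusted p under 0.05 and 9.06% for DESeq2. The lists were chosen with earlier results of these data known, so their counts and medians are a description only. Of 10 genes around FGF21 signalling, 0 passed edgeR, 2 had an unadjusted p under 0.05 and DESeq2 passed 1. The FGF receptor gene Fgfr4 had 26.1, 31.7 and 28.9 CPM in libraries labelled CRY1 KO, against 36.2, 36.97 and 42.2 CPM in WT (log2 -0.41, edgeR adjusted p = 0.0831), and the adaptor gene Frs2 had a log2 difference of 0.40. Of 12 genes around ANGPTL proteins and lipoprotein lipase, 0 passed, 4 had an unadjusted p under 0.05 and DESeq2 passed 2. The endothelial lipase gene Lipg had 11.3, 15.5 and 32.5 CPM in libraries labelled CRY1 KO, against 5.47, 3.22 and 3.07 CPM in WT (log2 2.34, edgeR adjusted p = 0.0770). Furin, a protease that cleaves several of these proteins, had a log2 difference of 0.32.

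Of 12 tested genes of the insulin-like growth factor axis 0 passed edgeR, 3 had an unadjusted p under 0.05 and DESeq2 passed 2. The binding protein genes Igfbp5 (log2 0.85, edgeR adjusted p = 0.0566) and Igfbp3 (0.81) had the smallest p. Of 17 tested activin and inhibin genes 0 passed, 5 had an unadjusted p under 0.05 and DESeq2 passed 2. The activin βB gene Inhbb had 3.11, 2.57 and 3.79 CPM in libraries labelled CRY1 KO, against 1.33, 0.595 and 1.36 CPM in WT (log2 1.53, edgeR adjusted p = 0.0606). The log2 difference of Inhbc was -0.35. Of 8 cystatin-fold proteins and reported fetuin targets 0 passed, 2 had an unadjusted p under 0.05 and DESeq2 passed 0, with the insulin receptor gene Insr at 0.31 and the cystatin C gene Cst3 at -0.23. Of 4 reported LECT2 receptors 0 passed by edgeR or DESeq2 and 0 had an unadjusted p under 0.05, with Met at -0.14 and Tie1 at 0.13. Of 25 other liver-secreted hormones 0 passed edgeR, 5 had an unadjusted p under 0.05 and DESeq2 passed 5. In that list the thrombopoietin gene Thpo had a log2 difference of -0.92 and Tsku, which encodes the secreted protein tsukushi, of 1.71.

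Pathways known to drive hepatokine genes, each listed as regulators with target genes, were read in the same way and with the same limit. The integrated stress response acts on Fgf21, Gdf15 and Inhbe, and its list holds its transcription factors and target genes. In that list 1 of 19 rose, 2 fell and 16 did not pass, where 1.06% of all tested genes rose and 0.644% fell. An unadjusted p under 0.05 was found for 5 of them (20.7% of all genes), and DESeq2 passed 4 (9.06% of all). Atf4, the transcription factor of this response, fell to 72.3, 73.3 and 74.3 CPM in libraries labelled CRY1 KO, against 105, 117 and 96.9 CPM in WT (log2 -0.54, SE 0.09, edgeR adjusted p = 0.0349). Its relative Atf5 fell by 0.58 on the log2 scale, and the sestrin gene Sesn2 rose by 0.86. The median of the list was -0.08. In the list of PPARα and its targets, which include activators of Fgf21 and Angptl4 transcription in fasting, 1 of 18 rose and 17 did not pass, 6 had an unadjusted p under 0.05 and DESeq2 passed 5. The median was 0.42, and 17 of the 18 had positive differences, as did 6537 of the 13816 tested genes. The called gene was Cpt1a (log2 0.71), the gate of mitochondrial fatty acid oxidation.

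In the list of insulin and carbohydrate response, which is known to act on Angptl8, 2 of 16 rose and 14 did not pass, 8 had an unadjusted p under 0.05 and DESeq2 passed 7, with a median of 0.39. Against these stand 1.06% of all tested genes that rose, 20.7% and 9.06%. The called genes were Pklr (0.74), the liver pyruvate kinase gene, and Foxo1 (0.98), a transcription factor that insulin restrains. Of 13 tested genes in the list of the glucocorticoid receptor and its targets 0 passed edgeR, 5 had an unadjusted p under 0.05 (20.7% of all genes) and DESeq2 passed 5 (9.06% of all). The median was 0.55, with 9 positive and 4 negative log2 differences that ran from -3.16 to 3.29. The smallest p were those of Zbtb16 (log2 3.29) and Fkbp5 (1.56). The calls of Atf4, Atf5, Sesn2, Cpt1a, Pklr and Foxo1 were each lost when any library labelled CRY1 KO or WT 2 was left out (adjusted p up to 0.193), fits in which between 17 and 40 genes passed in all. Without scaling of the libraries those of Atf4, Sesn2, Cpt1a and Pklr were lost too (edgeR adjusted p from 0.0596 to 0.0848).

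**Figure D5:**
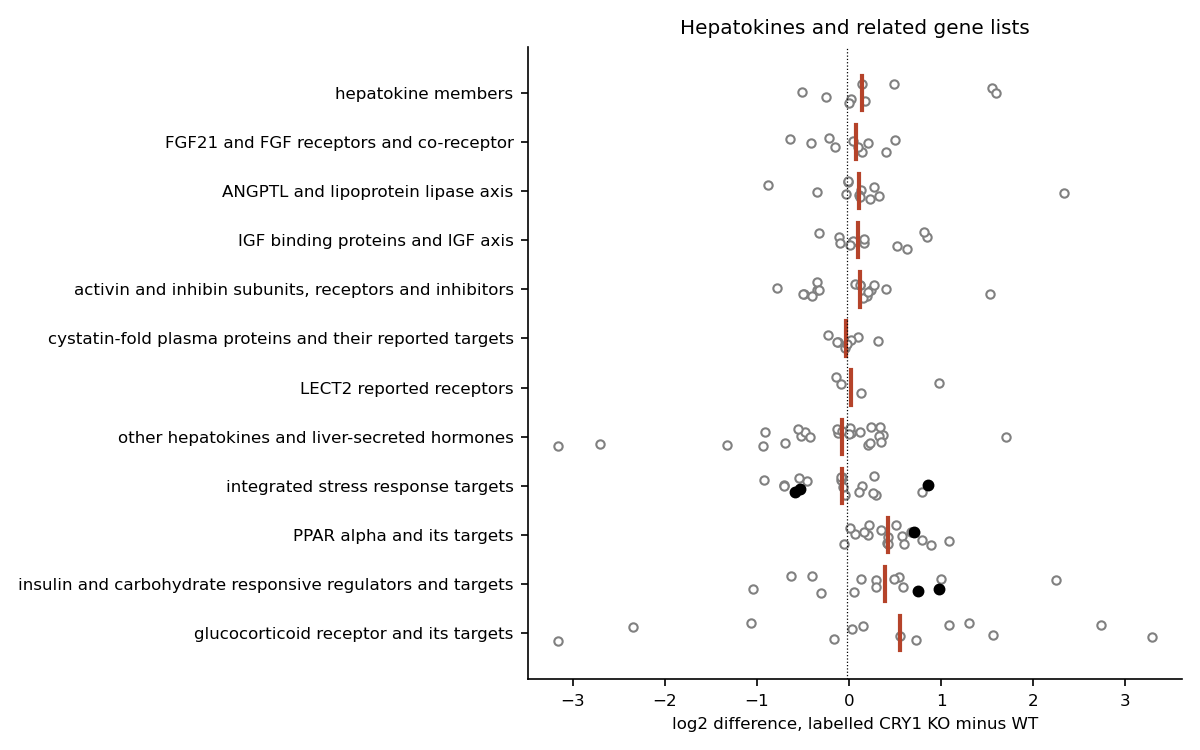
Log2 difference (horizontal axis, libraries labelled CRY1 KO minus WT) of each tested gene in the hepatokine list and the related lists, filled where the edgeR adjusted p was under 0.05, with the list median as a red line and the median of all tested genes dotted. Filled points appear in the stress response, PPARα and insulin lists, and the hepatokine genes have 0.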

How the data were processed

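Liver mRNA was sequenced in 6 libraries made with a stranded kit, per the labels. The deposited values are whole numbers, taken here as estimated counts. The submitters' processing notes name limma 3.42.2, StringTie 2.1.7, HISAT2 2.2.1 and Trim Galore 0.6.7, with GRCm39 (mm39) as the build. The annotation, and whether strand was used, is not given in the sources used here. Among the lowest values of each library 3 was more frequent than 1, 2 or 4, so a unit need not be a single fragment. The step that made these values is not known. The smallest gene sum over the libraries was 11.

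Groups and replicate numbers came from the titles. In R 4.3.3, filterByExpr of edgeR 4.0.16 (at least 10 counts, total of at least 15) left 13816 genes. They were scaled by TMM and compared with the robust quasi-likelihood test, and p-values were adjusted by Benjamini-Hochberg over all of them. Intervals came from limma 3.58.1 with trend on log2 CPM (prior count 2) and were not adjusted over genes. DESeq2 1.42.0, other scalings and filters, a replicate block and leaving out each library were alternatives. Ratios added 0.5 to each count. The procedure was also run on simulated counts with planted differences, and the outcome of that run is not reported here. The members and the related gene lists were chosen with earlier results of these data known. Named in the text are all members, the called genes of each list or otherwise the 2 with the smallest p, and for likeness the 3 nearest genes. Values of Igfbp1, Alb, Fabp4 and Adipoq were added outside this rule.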

Additional observations from a re-analysis of the deposited data

How the results depend on the processing

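The count of genes passing over all genes was 235 with all libraries. It was 113 without scaling, 94 with the replicate number as a block and 1252 by DESeq2, and it ran from 17 to 844 over the fits that each left out 1 library. TMM cancels a change of library totals, so leaving the Mup, mitochondrial and haemoglobin genes out of the totals again gave 235. Of the 9 hepatokine genes, 2 passed by DESeq2 (Fgf21 and Lect2), and over the leave-one-out fits the count ran from 0 to 1 (Angptl4, without WT 1). The median of the 9 ran from 0.052 to 0.43 over those fits. The log2 difference of Fgf21 ran from 1.18 to 1.95 and that of Lect2 from -0.66 to -0.41. Angptl8 changed sign with limma (0.13), the replicate block (0.13) and in 4 leave-one-out fits (-0.35 to 0.43), as did Inhbe without WT 1 (leave-one-out range -0.10 to 0.62) and Fetub without WT 2 (-0.029 to 0.052). Cry1 ran from -0.19 to 0.088. The 4 ratio differences kept their sign with 10 added to each count and when each library was left out. That of Igfbp2 to Igfbp1 ran from -1.25 to -0.01 as libraries were left out. Libraries of the same number did not deviate together (correlations -0.07, -0.01 and 0.07), and not every library correlated best with its own number, so the numbers are not taken as pairs, and the block changed no call among the 9. Of the other genes named as called, Cpt1a and Jchain kept the call under the block, and Foxo1, Atf4, Atf5, Sesn2, Pklr and Hnf4a lost it (edgeR adjusted p from 0.0750 to 0.0843). The causes of these changes were not tested.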
